A study of Mus musculus with 74 samples.

Results

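The interleukin 1 family and its receptors are represented here by 10 genes, taken by name from a table of raw read counts for 49480 gene symbols. They are the ligand genes Il1a, Il1b and Il18, the antagonist gene Il1rn, the receptor genes Il1r1, Il1rl1 and Il18r1, the accessory chain genes Il1rap and Il18rap, and the decoy receptor gene Il1r2. All 10 names were found in the table. They were taken by family membership, with earlier results of these data known. The study sequenced RNA from 74 libraries of 1000 sorted cells each, from tumor and spleen of mice of the inbred laboratory strain C57BL/6J aged 12 or 3 months. Every mouse group carries the same treatment text, a subcutaneous tumor of MC38 cells, a mouse colon carcinoma line, taken on day 10 of growth, and the labels name no group without a tumor. The libraries form 20 groups, which are 5 sorted types from 2 tissues at 2 ages: macrophages (CD45+ CD11b+ F4/80+), dendritic cells (CD45+ CD11b+ CD11c+ MHCII+), regulatory T cells (CD45+ TCRb+ CD4+ CD25+), conventional CD4 T cells (CD45+ TCRb+ CD4+ CD25-) and CD8 T cells (TCRb+ CD8+). Of these groups 15 hold 4 libraries, 4 hold 3 and 1 holds 2. Those of 3 are the dendritic cells of spleen at both ages and of tumor at 12 months, and the 3 month conventional CD4 T cells of spleen. The group of 2 is the 3 month conventional CD4 T cells of tumor. Replicate 1 of each dendritic cell group came from a male mouse, 4 libraries in all, and the other 70 libraries are from females.

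The family is a set of alarm and inflammation cytokines with built-in brakes. Interleukins 1 alpha and 1 beta bind the receptor encoded by Il1r1, which recruits the accessory protein of Il1rap and signals through MyD88 to NF-kB, while the product of Il1rn occupies that receptor without signalling and the product of Il1r2 binds the ligand and lacks a signalling domain. Il1rl1 encodes ST2, the receptor of interleukin 33 and a known surface protein of tissue regulatory T cells, which also uses the Il1rap chain. Interleukin 18 signals through the chains of Il18r1 and Il18rap, and it is known for raising interferon gamma production by T cells and natural killer cells. Interleukins 1 beta and 18 are made as precursors that caspase 1 of the inflammasome cuts, so a transcript level does not give the amount of active cytokine.

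Library totals ran from 1652812 to 9115858 counts. Levels are given as counts scaled to a library total of 1000000 (CPM), without correction for gene length, so they are compared between libraries and not between genes. Log2 fold changes, with their standard errors (SE), and adjusted p-values come from edgeR's quasi-likelihood test with Benjamini-Hochberg adjustment over all genes tested in a comparison, at a threshold of 0.05. These fits scale libraries by TMM, which puts log2 fold changes of tumor over spleen 0.21 above the ratio of CPM in macrophages, 0.33 above it in dendritic cells and 0.24 above it in regulatory T cells. In spleen conventional CD4 T cells the change of 12 over 3 months lies -0.17 from the ratio of CPM. Among the T cell sorts, Cd3e was at 119 CPM or more in all T cell libraries, Cd8a at 829.5 CPM or more in all CD8 libraries, and Foxp3 at 869 CPM or more in all regulatory T cell libraries, against 21.2 to 79.9 CPM in spleen and 76.1 to 354 CPM in tumor conventional CD4 T cells. The myeloid sorts also held markers of other cells. The 9 macrophage markers summed to 10210.2 to 17387 CPM in tumor macrophages and 2946 to 4568 CPM in spleen macrophages, where the 11 neutrophil markers summed higher in all 8 libraries. In 5 of 7 tumor dendritic cell libraries the macrophage markers summed higher than the 9 dendritic cell markers, which lay at 1524 to 5000.3 CPM, and in no spleen dendritic cell library did they. The age tag of 2 spleen dendritic cell libraries, replicates 3 and 4 of the 3 month group, gives 12 months, and their titles were followed. The labels do not state whether libraries within 1 group stem from different animals, and p-values then describe the spread among the libraries, which may be technical. In sorted bulk samples of this kind, fewer cells of a type with a transcript and less of it per cell cannot be told apart.

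The promoters of Il1a, Il1b and Il1r2 are shown because these genes made the largest tumor to spleen differences among the members in dendritic cells, beside Il1rn. Sequences are from RefSeq, in which all 10 members matched by symbol, in build GRCm38.p6. Each runs from 250 bases before to 50 bases after the gene's RefSeq start, 5′ to 3′ on the gene's strand. Il1a lies at chr2:129299610-129309972 on the minus strand and its window at chr2:129309923-129310222. Il1b lies next to it at chr2:129364570-129371139, also on the minus strand, and its window is chr2:129371090-129371389. Il1r2 lies on the plus strand at chr1:40074079-40125231, and its window at chr1:40085843-40086142 is at a RefSeq start inside that gene span.
Il1a: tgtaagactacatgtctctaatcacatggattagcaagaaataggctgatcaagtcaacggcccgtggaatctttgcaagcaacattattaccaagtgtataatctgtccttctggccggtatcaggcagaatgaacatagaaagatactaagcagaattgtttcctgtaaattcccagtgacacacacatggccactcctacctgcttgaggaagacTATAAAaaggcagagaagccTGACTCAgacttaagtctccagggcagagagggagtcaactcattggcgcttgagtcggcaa
Il1b: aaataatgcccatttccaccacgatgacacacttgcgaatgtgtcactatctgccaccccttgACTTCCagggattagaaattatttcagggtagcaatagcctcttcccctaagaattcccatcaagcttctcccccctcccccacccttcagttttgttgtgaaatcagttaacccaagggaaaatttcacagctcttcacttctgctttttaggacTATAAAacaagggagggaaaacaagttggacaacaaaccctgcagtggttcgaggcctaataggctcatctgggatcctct
Il1r2: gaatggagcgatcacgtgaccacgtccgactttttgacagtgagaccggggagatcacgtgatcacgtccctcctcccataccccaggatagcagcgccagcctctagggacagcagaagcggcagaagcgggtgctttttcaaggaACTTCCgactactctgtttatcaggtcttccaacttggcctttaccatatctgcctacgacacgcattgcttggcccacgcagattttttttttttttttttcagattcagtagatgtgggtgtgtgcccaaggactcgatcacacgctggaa
Capitals mark matches, on either strand, to 5 short motifs. The Il1a window held TATAAA beginning 32 bases before the start and an AP-1 motif (TGANTCA) beginning 12 bases before it. The Il1b window held TATAAA beginning 31 bases before the start and a PU.1 motif (GGAAGT) on the opposite strand, printed as ACTTCC, beginning 187 bases before it. The Il1r2 window held a PU.1 motif on the opposite strand beginning 103 bases before the start. No match to the NF-kB motif (GGGA, any base, TTTCC) or to a C/EBP motif (TTGCNNAA) was found in these windows. Among 32851 RefSeq promoter windows of the same length, TATAAA was present in 13.6%, the PU.1 motif in 23.8%, the C/EBP motif in 10.8%, the AP-1 motif in 7.81% and the NF-kB motif in 0.411%.

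Across the 5 types and 2 tissues, ligand transcripts were highest in the myeloid sorts and most receptor transcripts in the T cell sorts, with Il1r2 present in both. Il1b had its highest median in tumor dendritic cells (3979 CPM), which did not overlap the next, then tumor and spleen macrophages (1636 and 1623 CPM), which overlapped, then spleen dendritic cells (137 CPM). In T cell groups its median was at most 1.11 CPM. Il1a was highest in tumor macrophages and tumor dendritic cells, with overlapping libraries and medians of 35.6 and 35.4 CPM, and no other type and tissue had a median above 1.55 CPM. The order for Il18 was tumor macrophages (48.2 CPM), spleen macrophages (33.4), spleen dendritic cells (19.4) and tumor dendritic cells (14.8), and each overlapped its neighbor.
Receptors followed another order. Il18r1 was highest in tumor conventional CD4 (222 CPM) and tumor CD8 T cells (189 CPM), Il18rap in tumor CD8 (362 CPM) and tumor conventional CD4 T cells (273 CPM), and Il1rl1 in tumor regulatory (53.6 CPM) and tumor conventional CD4 T cells (29.5 CPM). Each of these pairs overlapped. Il1r1 reached a median of 10 CPM only in tumor conventional CD4 T cells (10.3 CPM), and medians of Il1rap stayed between 8.44 and 50.6 CPM in every type and tissue, with all neighbors in the order overlapping.

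**Figure D1:**
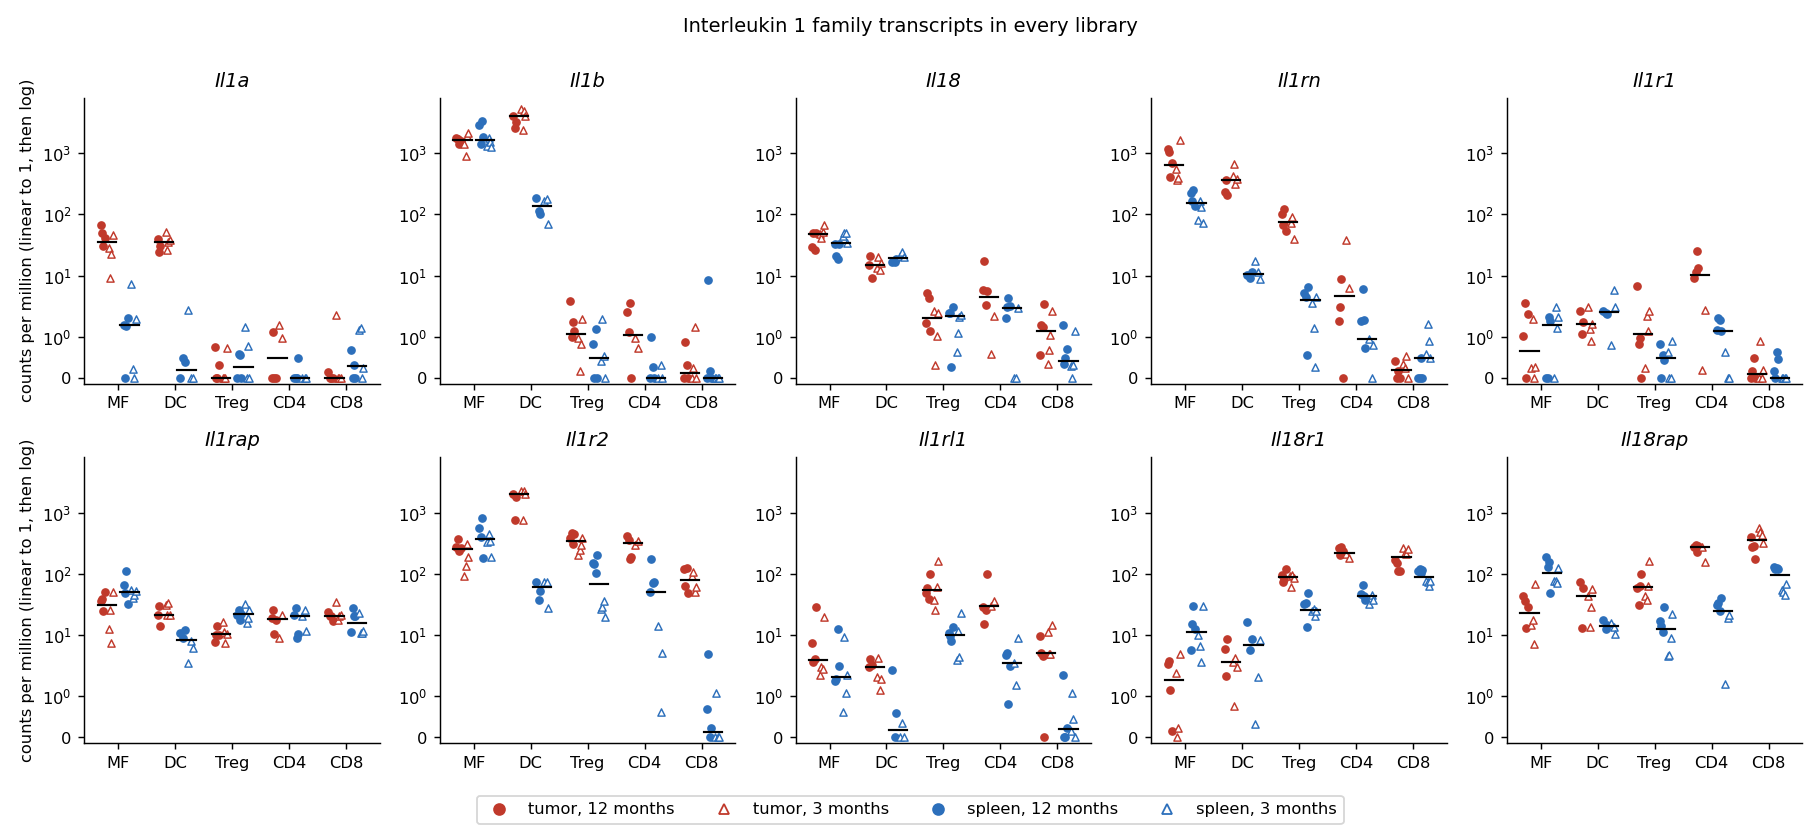
Level in CPM of each of the 10 genes in each of the 74 libraries, by sorted type (MF macrophages, DC dendritic cells, CD4 conventional CD4 T cells) on the x axis, on a y axis that is linear to 1 and logarithmic above, with black lines at the median over both ages. Il1b is high in all myeloid groups except spleen dendritic cells, and Il1r2 is at 49.2 CPM or more in every tumor library of all 5 types.

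Between tumor and spleen, taken over both ages, members were called in each type, in macrophages at a share close to that of all genes. In macrophages 9 members were tested, of which 3 rose in tumor and 2 fell, with 51.7% of all tested genes called. By direction that was 23.9% of all tested genes higher and 27.8% lower. In dendritic cells 7 of 10 rose and none fell, with 47.1% of all genes called, 24.4% of all tested genes higher and 22.7% lower. Of 7 members tested in regulatory T cells, 5 rose and 1 fell, against 53.5% of all genes, 25.9% of all tested genes higher and 27.6% lower. Conventional CD4 T cells had 6 of 8 higher and none lower, with 27.2% of all genes called, 16% of all tested genes higher and 11.2% lower. CD8 T cells had 4 of 5 higher and none lower, with 42.1% of all genes called, 22.5% of all tested genes higher and 19.6% lower. A member not tested had too few counts in the libraries of that comparison, and one that is high in a single tissue passes that filter through it, so these shares describe the tested members only. The median log2 fold change of the tested members was -0.0037 in macrophages, 2.82 in dendritic cells, 2.62 in regulatory T cells, 2.94 in conventional CD4 T cells and 2.19 in CD8 T cells, while that of all tested genes lay between -0.062 and 0.036.

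**Figure D2:**
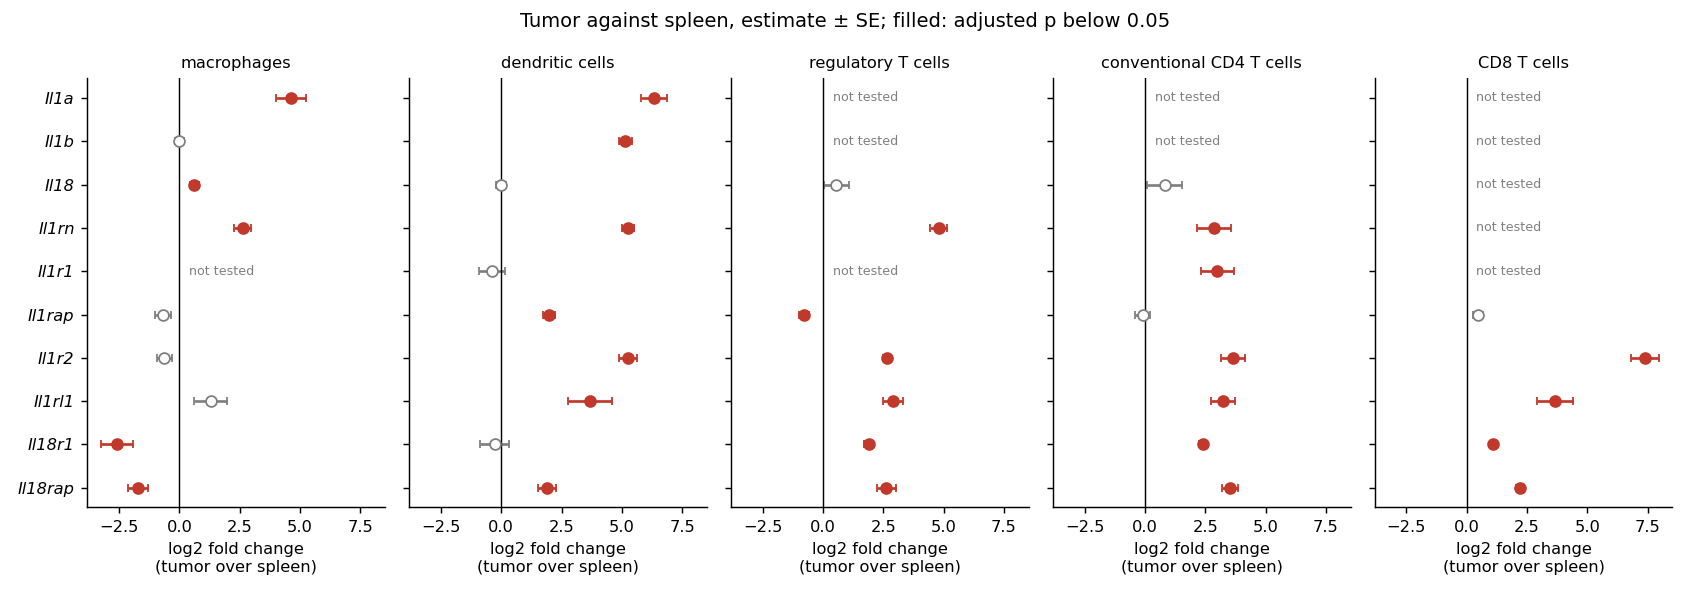
Log2 fold change of tumor over spleen (x axis, estimate ± SE from edgeR's quasi-likelihood fit over both ages) for each member (y axis) in the 5 sorted types, filled where the adjusted p is below 0.05. Il1rn and Il1a are to the right of 0 in each type in which they were tested, and Il18r1 and Il18rap lie to the left of 0 in macrophages and to the right in the 3 T cell types.

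Among the ligands, Il1a, a cytokine that is active without cleavage, was found mainly in tumor myeloid cells. In tumor macrophages it had 66.6, 48.8, 30.5 and 40.7 CPM at 12 months and 27.6, 9.14, 22.2 and 45.7 CPM at 3 months. Spleen macrophages had 1.57, 0, 1.52 and 2.02 CPM at 12 months and 7.29, 0.215, 0 and 1.95 CPM at 3 months. Tumor and spleen libraries did not overlap, and the difference was 4.62 ± 0.60 (log2, SE; adjusted p = 9.82e-06). In tumor dendritic cells it had 39.2, 23.9 and 30.3 CPM at 12 months and 52.1, 26.1, 35.4 and 37.6 CPM at 3 months, while 5 of the 6 spleen dendritic cell libraries were below 1 CPM (log2 6.32 ± 0.53, adjusted p = 8.04e-07). No T cell library exceeded 2.30 CPM. Reads of Il1a can include those of Gm14023, an overlapping gene on the opposite strand that reached at most 7.01 CPM, because the strand setting of the counting is not given in the sources used here.

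Il1b, which encodes the precursor cut by caspase 1, separated the tissues in dendritic cells and not in macrophages. Tumor dendritic cells had 4039, 2558 and 3213 CPM at 12 months and 5191, 2343, 4914 and 3979 CPM at 3 months. Spleen dendritic cells had 181, 113 and 100.2 CPM at 12 months and 162, 178 and 68.1 CPM at 3 months. The groups did not overlap (log2 5.14 ± 0.26, adjusted p = 1.03e-08). Tumor macrophages had 1742, 1677, 1398 and 1596 CPM at 12 months and 1382, 883, 1898 and 2114 CPM at 3 months. Spleen macrophages had 2825, 1395, 3277 and 1829 CPM at 12 months and 1325, 1745, 1500.2 and 1258 CPM at 3 months. These groups overlapped throughout (log2 -0.0037 ± 0.19, adjusted p = 0.989). The difference between macrophages and dendritic cells therefore had opposite signs in the tissues: macrophages were lower in tumor (log2 -1.09 ± 0.22, adjusted p = 0.000217) and higher in spleen (log2 4.04 ± 0.27, adjusted p = 4.28e-12), and the test of that change between tissues gave -5.13 ± 0.33, adjusted p = 2.38e-11. The antisense gene Il1bos reached at most 27.3 CPM.

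Other cells differed between these sorts as well. In tumor macrophages the 11 neutrophil markers summed to 184 to 1194 CPM, against 5895 to 45526 CPM in spleen macrophages, and all 11 were detected in both. Without the 3 spleen macrophage libraries above 16000 CPM, an alternative chosen after seeing the data, Il1b gave 0.10, adjusted p = 0.692. The spleen macrophage libraries kept still held 5895 to 15078 CPM of neutrophil markers. The 9 macrophage markers summed to 2561 to 12637 CPM in tumor dendritic cells, all detected and highest in replicate 2 of each age, against 551 to 745 CPM in spleen dendritic cells. Without those 2 libraries Il1b gave 5.25, adjusted p = 8.99e-08 in dendritic cells, and in the 2 libraries themselves Il1b had the lowest levels of their groups. The 8 B cell markers summed to 18.3 to 36.4 CPM in tumor dendritic cells, against 587 to 3525 CPM in spleen dendritic cells, and their part in these results was not tested.

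Il18, which many myeloid and epithelial cells hold as a precursor, differed little by comparison. Tumor macrophages had 29.1, 49.4, 25.9 and 50.2 CPM at 12 months and 46.9, 40.9, 51.7 and 65.7 CPM at 3 months. Spleen macrophages had 32.6, 20.6, 18.8 and 32.8 CPM at 12 months and 43.4, 48.9, 49.3 and 34.1 CPM at 3 months. The tissues overlapped, and Il18 rose in tumor by 0.61 ± 0.18 (log2, adjusted p = 0.00765). That call was lost without replicate 4 of every group, an alternative chosen after seeing the data (0.46, adjusted p = 0.0613). In spleen macrophages all 4 libraries at 12 months were below all 4 at 3 months, without passing the test (log2 -0.69 ± 0.25, adjusted p = 0.746, unadjusted p = 0.0151). In dendritic cells Il18 was at 15.2 ± 4.10 CPM in tumor and 19.5 ± 2.83 CPM in spleen (SD, n = 7 and 6; log2 -0.022 ± 0.21, adjusted p = 0.944). Macrophages exceeded dendritic cells in tumor (log2 1.46 ± 0.21, adjusted p = 1.15e-06) and in spleen (log2 0.82 ± 0.21, adjusted p = 0.00197). The spleen call was lost without the 2 libraries of conflicting age labels (0.79, adjusted p = 0.0601) and with the age taken from the tag (0.70, adjusted p = 0.0661).

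The antagonist gene Il1rn rose in tumor in 4 of the 4 types in which it was tested. Tumor macrophages had 1158, 1041, 413 and 697 CPM at 12 months and 554, 364, 395 and 1608 CPM at 3 months. Spleen macrophages had 219, 167, 248 and 138 CPM at 12 months and 81.1, 167, 131 and 72.1 CPM at 3 months. The lowest tumor library was above the highest spleen library (log2 2.62 ± 0.36, adjusted p = 2.05e-05). Tumor dendritic cells had 227, 361 and 209.6 CPM at 12 months and 416, 663, 306 and 373 CPM at 3 months. Replicate 2, the library with the most macrophage markers, was the highest at each age. Spleen dendritic cells had 10.1, 9.01 and 11.5 CPM at 12 months and 17.0, 11.3 and 8.80 CPM at 3 months (log2 5.26 ± 0.26, adjusted p = 7.04e-09), again without overlap.
Regulatory T cells carried the same transcript. Tumor regulatory T cells had 101, 67.3, 119.6 and 52.6 CPM at 12 months and 77.3, 71.8, 90.0 and 39.6 CPM at 3 months. Spleen regulatory T cells had 5.12, 4.38, 0.542 and 6.401 CPM at 12 months and 3.55, 1.42, 0.261 and 4.50 CPM at 3 months. Every tumor library was above every spleen library (log2 4.79 ± 0.35, adjusted p = 2.36e-09). The tumor libraries held 164 to 242 CPM of the 7 myeloid markers in sum, against 77.8 to 113 CPM in the spleen ones. Among the 7, Lyz2 was at 0 to 6.99 CPM in tumor regulatory T cells and 1.36 to 11.9 CPM in those of spleen. Tumor macrophages had at least 4728 CPM of it. Cd68 had a median of 19.1 CPM in tumor against 8.05 CPM in spleen regulatory T cells, and Csf1r 2.08 against 2.79 CPM. Most of each sum came from other genes of the list. Itgam lay between 4.63 and 17.6 CPM across the tumor regulatory T cell libraries, and between 1.13 and 13.5 CPM across the spleen ones. Of the macrophage markers, C1qa had a median of 4.92 CPM in these tumor libraries against 0.461 CPM, and C1qb 6.12 against 1.83 CPM. Adgre1 went the other way, at 0.104 against 0.787 CPM. The part of myeloid cells was not tested. Tumor regulatory T cells also exceeded tumor conventional CD4 T cells, at 77.4 ± 25.9 CPM in regulatory and 9.63 ± 14.2 CPM in conventional cells (SD, n = 8 and 6; log2 3.12 ± 0.51, adjusted p = 3.09e-06), a comparison in which 41.4% of all genes were called and 3 members with them.
In conventional CD4 T cells Il1rn rested on 1 library. Tumor libraries had 1.80, 3.03, 8.63 and 0 CPM at 12 months and 38.0 and 6.37 CPM at 3 months. Spleen conventional CD4 T cells had 1.81, 6.01, 1.87 and 0.735 CPM at 12 months and 0.948, 0 and 0.799 CPM at 3 months. The tissues overlapped, and the call (log2 2.87 ± 0.70, adjusted p = 0.00313) was lost without replicate 1 of the 3 month tumor group (1.88, adjusted p = 0.138). In that library the regulatory T cell markers summed to 2580 CPM, against 1026 to 2253 CPM in the other tumor conventional CD4 libraries. The part of these markers was not tested. No CD8 library exceeded 1.62 CPM.

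Set against Il1b in the same library, Il1rn moved in macrophages. Each library's ratio of Il1rn to Il1b counts, with 0.5 added to each count, had a median of 0.424 in tumor macrophages (0.208 to 0.761) and 0.0768 in spleen macrophages (0.0573 to 0.120). The groups of 8 libraries did not overlap, the mean log2 ratio differed by 2.47, and a two-sided exact permutation test over 12870 regroupings gave p = 0.0001554, the smallest it can give (0.0003108 after Benjamini-Hochberg adjustment over the 4 ratios examined). In dendritic cells the medians were 0.0801 in tumor and 0.0921 in spleen, with a mean log2 difference of 0.11 (exact permutation p = 0.801). That sign turned to -0.32 without replicate 2 of each age in tumor, the libraries with the most macrophage markers.

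**Figure D3:**
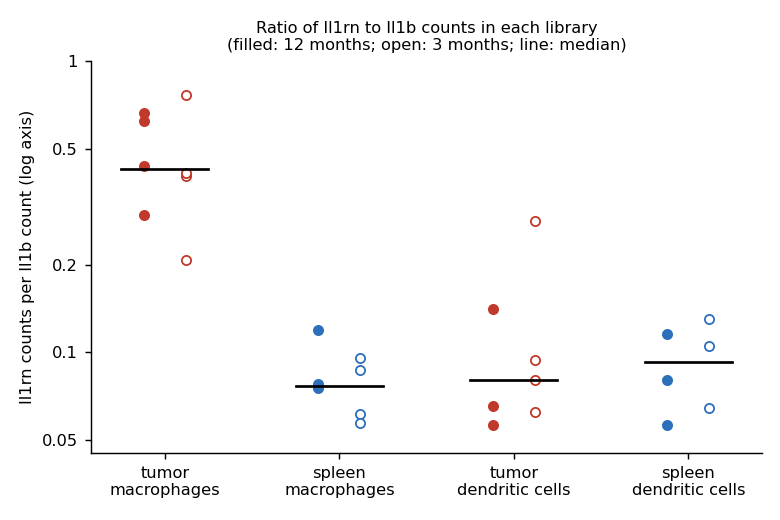
Ratio of Il1rn to Il1b counts in each library (y axis, logarithmic), for tumor and spleen macrophages and dendritic cells, with filled points at 12 months, open points at 3 months and a line at the median. Tumor macrophages, from 0.208 to 0.761, lie above all spleen macrophages, and the dendritic cell groups overlap.

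Among the receptors, Il1r1, the signalling receptor of interleukin 1, was scarce. Tumor conventional CD4 T cells had 9.02, 11.5, 25.1 and 13.2 CPM at 12 months and 0.192 and 2.69 CPM at 3 months. Spleen conventional CD4 T cells had 1.27, 2.00, 1.87 and 1.23 CPM at 12 months and 0.632, 0 and 0 CPM at 3 months. The 4 tumor libraries at 12 months and replicate 3 at 3 months were above all spleen libraries, and replicate 1 at 3 months was not. The tissue difference was 3.00 ± 0.69 (log2, adjusted p = 0.00165) and was lost without replicate 3 of the 3 month tumor group (1.66, adjusted p = 0.336). Between the ages in tumor the difference of 3.39 ± 0.82 did not pass (adjusted p = 0.264, with 2 libraries at 3 months), and DESeq2 called it (3.42, adjusted p = 0.0108), as did edgeR without the low-count filter (3.36, adjusted p = 0.0109). Compared with tumor conventional CD4 T cells, tumor CD8 T cells were lower (log2 -4.18 ± 0.87, adjusted p = 0.000432), a call also lost without that replicate 3 (-2.81, adjusted p = 0.255), and 4 members fell and none rose there while 15.3% of all genes were called. In every other type and tissue the highest library had at most 6.74 CPM, and Il1r1 was not tested in macrophages, regulatory T cells or CD8 T cells between the tissues.

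Il1rap, the accessory chain shared by the receptors of interleukins 1 and 33, had medians of 8.44 to 50.6 CPM over types and tissues. It rose in tumor dendritic cells, at 24.6 ± 6.83 CPM in tumor and 8.23 ± 3.09 CPM in spleen (SD, n = 7 and 6; log2 1.97 ± 0.25, adjusted p = 1.88e-05), without overlap. It fell in tumor regulatory T cells, at 10.9 ± 3.07 CPM in tumor and 22.4 ± 5.28 CPM in spleen (SD, n = 8 each; log2 -0.81 ± 0.21, adjusted p = 0.00236), with overlap. In macrophages (-0.69 ± 0.32, adjusted p = 0.0851), conventional CD4 T cells (-0.096 ± 0.32, adjusted p = 0.862) and CD8 T cells (0.46 ± 0.21, adjusted p = 0.0839) the log2 difference between tumor and spleen did not pass. Without replicate 4 of every group it was called lower in tumor macrophages (-1.19, adjusted p = 0.00122). Its opposite-strand neighbor Gm20319 reached at most 1.86 CPM.

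The decoy receptor gene Il1r2 rose in tumor in 4 of 5 types. Tumor dendritic cells had 2013, 755 and 1785 CPM at 12 months and 2211, 749, 2218 and 2019.8 CPM at 3 months. Spleen dendritic cells had 73.2, 36.8 and 51.7 CPM at 12 months and 72.5, 72.5 and 27.8 CPM at 3 months. Replicate 2 was the lowest tumor library at each age, and it held the most macrophage markers. All tumor libraries were above all spleen libraries (log2 5.26 ± 0.38, adjusted p = 1.37e-06).
In macrophages the direction was the other and did not pass: tumor libraries had 269.6, 369, 235 and 265 CPM at 12 months and 93.3, 133, 306 and 185 CPM at 3 months. Spleen macrophages had 560.0, 399.7, 814 and 180.0 CPM at 12 months and 334, 454, 338 and 189 CPM at 3 months (log2 -0.63 ± 0.30, adjusted p = 0.0916). DESeq2 called it lower in tumor (-0.62, adjusted p = 0.0423), as did edgeR without replicate 4 of every group (-0.86, adjusted p = 0.0217). Like Il1b, Il1r2 was lower in macrophages than in dendritic cells of tumor (log2 -2.74 ± 0.34, adjusted p = 7.76e-07) and higher in spleen (log2 3.14 ± 0.40, adjusted p = 7.16e-07), with a difference between the tissues of -5.87 ± 0.50, adjusted p = 1.02e-08. In these comparisons 4 members were called in tumor, 7 in spleen and 5 for the difference, against 45.9%, 52.9% and 23.3% of all genes, and all 5 differences were negative. The other 3 were Il1rn (-2.64 ± 0.48, adjusted p = 0.000256), Il1rap (-2.65 ± 0.45, adjusted p = 6.58e-05) and Il18rap (-3.60 ± 0.64, adjusted p = 0.000186). Mitochondrial transcripts took 0.879 to 1.18% of counts in tumor and 0.817 to 1.47% in spleen macrophages. In dendritic cells they took 3.16 to 5.80% in tumor and 5.48 to 9.39% in spleen, and the part of this in the comparison of types was not tested. The neutrophil markers summed to 5895 to 45526 CPM in spleen macrophages, against 38.5 to 382 CPM in spleen dendritic cells. No spleen macrophage library was free of them, so their part cannot be told apart from that of macrophages.

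In T cells the same gene separated the tissues and, in spleen, the ages. Tumor regulatory T cells had 388, 468, 308 and 446 CPM at 12 months and 207, 243, 299.7 and 388 CPM at 3 months. Spleen regulatory T cells had 152, 145, 102 and 199.97 CPM at 12 months and 26.3, 28.6, 36.0 and 20.03 CPM at 3 months. All tumor libraries were above all spleen libraries (log2 2.63 ± 0.16, adjusted p = 3.13e-11), and all 4 spleen libraries at 12 months were above all 4 at 3 months. That age difference in spleen was 2.42 ± 0.22 (log2, adjusted p = 0.000138), and Il1r2 was 1 of 6 genes called, 0.0489% of those tested. It kept its call with each library left out in turn. In tumor the age difference was 0.50 ± 0.20 (adjusted p = 0.999, unadjusted p = 0.0268). The test of the difference between the age effects in tumor and in spleen gave -1.93 ± 0.31, adjusted p = 0.0628, with 0% of all genes called by edgeR, and DESeq2 called it (-1.93, adjusted p = 7.04e-05). The 4 regulatory T cell markers summed to 2949 to 3233 CPM at 12 months, against 2950.2 to 3493 CPM at 3 months in these spleen sorts, with all 4 detected.

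Spleen conventional CD4 T cells moved the same way with age, on fewer libraries. They had 51.4, 172, 71.6 and 74.8 CPM at 12 months and 13.9, 0.610 and 5.19 CPM at 3 months, without overlap (log2 3.63 ± 0.72, adjusted p = 0.0242), 1 of 6 members tested and 460 genes called, 3.92% of the total. The call was lost without replicate 4 of the 3 month group (3.48, adjusted p = 0.299) and without the low-count filter (3.64, adjusted p = 0.0820). The regulatory T cell markers moved with it: all 4 were detected and summed to 855 to 1176 CPM at 12 months and 187 to 591 CPM at 3 months, and Foxp3 was at 51.7 to 79.9 CPM at 12 months and 21.2 to 44.8 CPM at 3 months. Ribosomal protein genes took 3.52 to 4.02% of counts at 12 months and 4.16 to 10.6% at 3 months. Without replicates 1 and 4 of the 3 month group, the libraries richest in ribosomal transcripts, 1 library remained at that age, and the difference was 7.08, adjusted p = 0.277. The part of the regulatory T cell markers was not tested.
Tumor conventional CD4 T cells had 407, 353, 173 and 187 CPM at 12 months and 301 and 345 CPM at 3 months, above every spleen library (log2 3.65 ± 0.50, adjusted p = 0.000345). In tumor CD8 T cells the levels were 121, 64.0, 125 and 49.2 CPM at 12 months and 93.5, 108, 49.6 and 61.6 CPM at 3 months, while 5 of 8 spleen CD8 libraries were below 0.5 CPM and the highest had 4.84 CPM (log2 7.38 ± 0.58, adjusted p = 1.36e-07).
Between the T cell types, spleen regulatory T cells exceeded spleen conventional CD4 T cells (log2 1.24 ± 0.38, adjusted p = 0.00782, 1 of the 2 members called, against 42.2% of all genes), and the tumor values did not differ past the threshold (log2 0.24 ± 0.34, adjusted p = 0.611). The spleen call was lost without replicate 4 of every group (1.15, adjusted p = 0.0636). CD8 T cells were below conventional CD4 T cells in tumor (log2 -1.76 ± 0.34, adjusted p = 0.000342) and in spleen (log2 -5.49 ± 0.62, adjusted p = 3.15e-08, 1 of the 4 members called, with 11.7% of all genes). The difference between these gaps was 3.73 ± 0.76, adjusted p = 0.00285, 1 of the 2 members called, with 4.82% of all genes called. Without replicates 1 and 4 of spleen conventional CD4 T cells at 3 months, the libraries richest in ribosomal transcripts, both of the last calls were lost, at -3.75, adjusted p = 0.390 in spleen and 2.03, adjusted p = 0.707 for the difference. These comparisons between T cell types share libraries. Mitochondrial transcripts took 0.865 to 1.69% of counts in tumor regulatory T cells, against 5.06 to 10.9% in tumor conventional CD4 T cells. In spleen they took 1.63 to 2.01% in regulatory and 5.14 to 10.0% in conventional CD4 T cells. The part of this was not tested in any comparison of regulatory with conventional CD4 T cells given here.
In regulatory T cells the ratio of Il1r2 to Il1r1 counts had a median of 253 in tumor (57.0 to 2921) and 183 in spleen (19.9 to 1525). An exact permutation test did not separate the mean log2 difference of 0.80 (p = 0.402, 0.536 adjusted over the 4 ratios). Il1r1 held 15 counts in sum in spleen, with a count in 5 of 8 libraries, and 87 in tumor. The ratio thus rests in part on the 0.5 added to each count, and the test cannot decide whether it changed.

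**Figure D4:**
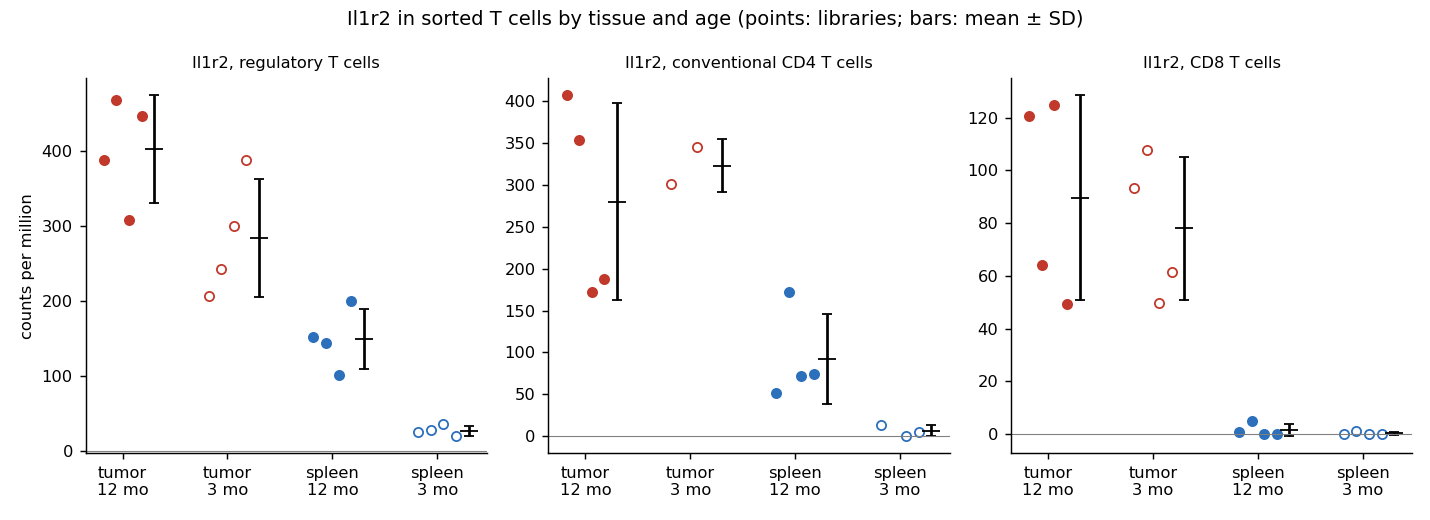
Il1r2 in CPM (y axis, a separate linear scale per panel) in each library of regulatory, conventional CD4 and CD8 T cells by tissue and age, with the mean ± SD of each group beside the points. Spleen regulatory T cells have 152, 145, 102 and 199.97 CPM at 12 months and 26.3, 28.6, 36.0 and 20.03 CPM at 3 months, and every tumor group lies above its spleen groups.

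Il1rl1, which encodes the interleukin 33 receptor ST2, rose in tumor in all 3 T cell types and in dendritic cells. Tumor regulatory T cells had 47.8, 59.5, 38.4 and 98.1 CPM at 12 months and 37.5, 25.5, 61.3 and 164 CPM at 3 months. Spleen regulatory T cells had 10.6, 9.52, 7.86 and 13.7 CPM at 12 months and 3.97, 11.6, 4.43 and 22.7 CPM at 3 months. No libraries overlapped (log2 2.89 ± 0.42, adjusted p = 2.61e-05). Replicate 4 was the highest tumor library at both ages. In tumor conventional CD4 T cells it had 29.2, 15.1, 26.1 and 99.1 CPM at 12 months and 29.7 and 35.8 CPM at 3 months. Spleen conventional CD4 T cells had 4.72, 5.01, 0.801 and 3.19 CPM at 12 months and 3.48, 1.52 and 8.99 CPM at 3 months (log2 3.23 ± 0.49, adjusted p = 7.69e-05), also without overlap. The level in tumor CD8 T cells was 6.91 ± 4.65 CPM, against 0.523 ± 0.783 CPM in spleen CD8 T cells (SD, n = 8 each; log2 3.67 ± 0.76, adjusted p = 0.000525). Tumor regulatory T cells did not differ from tumor conventional CD4 T cells past the threshold (log2 0.87 ± 0.54, adjusted p = 0.202). Without the low-count filter the SE was smaller and the difference passed (0.84 ± 0.24, adjusted p = 0.00462). Tumor CD8 T cells were below the conventional ones (log2 -2.40 ± 0.55, adjusted p = 0.00212). In spleen that last comparison gave -2.84 ± 0.78, adjusted p = 0.0138 and was lost without replicate 4 of spleen conventional CD4 T cells at 3 months (-2.33, adjusted p = 0.109) and without both libraries richest in ribosomal transcripts (-1.94, adjusted p = 0.520).
In tumor dendritic cells no library exceeded 4.28 CPM, and the call against spleen (log2 3.67 ± 0.92, adjusted p = 0.00439) was lost without replicate 4 of every group (3.18, adjusted p = 0.0565). In macrophages the levels were 7.54, 3.68, 4.03 and 28.5 CPM at 12 months and 2.20, 3.05, 2.84 and 19.5 CPM at 3 months in tumor, with replicate 4 the highest at each age, and 1.77, 1.92, 12.8 and 3.14 CPM at 12 months and 0.607, 9.48, 1.15 and 2.25 CPM at 3 months in spleen (log2 1.30 ± 0.68, adjusted p = 0.120). Without the 3 spleen libraries richest in neutrophil markers it was called (2.47, adjusted p = 0.0132).

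The interleukin 18 receptor genes, Il18r1 for the binding chain and Il18rap for the signalling chain, lie next to each other and to Il1rl1 on the plus strand of chromosome 1, at chr1:40465552-40500854 and chr1:40515362-40551705. Both rose in tumor in the 3 T cell types and fell in macrophages. Tumor conventional CD4 T cells had 259.8, 201, 273 and 234 CPM of Il18r1 at 12 months and 210.4 and 182 CPM at 3 months. Spleen conventional CD4 T cells had 47.2, 65.2, 42.7 and 37.3 CPM at 12 months and 32.2, 44.8 and 37.1 CPM at 3 months (log2 2.40 ± 0.16, adjusted p = 5.54e-12). Il18rap in the same tumor libraries had 271, 298, 227 and 289 CPM at 12 months and 275 and 157 CPM at 3 months. Spleen conventional CD4 T cells had 31.4, 33.1, 24.8 and 40.2 CPM at 12 months and 1.58, 19.2 and 21.4 CPM at 3 months (log2 3.53 ± 0.35, adjusted p = 2.84e-06). Neither gene's tissues overlapped. Regulatory T cells had 88.0 ± 17.1 CPM of Il18r1 in tumor and 28.1 ± 10.5 CPM in spleen (SD, n = 8 each; log2 1.89 ± 0.18, adjusted p = 2.54e-08), and 70.2 ± 43.4 CPM of Il18rap in tumor and 13.9 ± 8.36 CPM in spleen (log2 2.62 ± 0.39, adjusted p = 3.24e-05).
Tumor regulatory T cells stayed below tumor conventional CD4 T cells in both genes (Il18r1 log2 -1.26 ± 0.15, adjusted p = 1.61e-09; Il18rap log2 -1.74 ± 0.33, adjusted p = 4.13e-05), and spleen regulatory T cells in Il18r1 (log2 -0.77 ± 0.16, adjusted p = 4.79e-05). The spleen gap of Il18rap missed the threshold (log2 -0.85 ± 0.36, adjusted p = 0.0553). It was called by DESeq2 (-0.91, adjusted p = 0.0237), with the size factors of DESeq2 (-0.91, adjusted p = 0.0403) and without replicate 4 of every group (-1.02, adjusted p = 0.0111). Without the low-count filter it was called at a similar size with a smaller SE (-0.90 ± 0.16, adjusted p = 1.73e-07). Whether these gaps differed between the tissues was tested, and none of the members was called by edgeR with the low-count filter or by DESeq2, with 2 at an unadjusted p under 0.05 and 8.98% of all genes called.
Macrophages had 2.02 ± 1.88 CPM of Il18r1 in tumor and 14.2 ± 10.3 CPM in spleen (SD, n = 8 each; log2 -2.59 ± 0.67, adjusted p = 0.00385), and Il18rap 28.4 ± 19.95 CPM in tumor and 109 ± 47.8 CPM in spleen (log2 -1.71 ± 0.42, adjusted p = 0.00331), with overlap in both. Markers of other cells differed between these sorts too. Tumor macrophage libraries held 10.5 to 39.9 CPM over the 8 B cell markers and spleen macrophage libraries 754 to 3135 CPM, with all 8 detected in both. The 5 natural killer cell markers summed to 0 to 6.49 CPM in tumor, with 4 detected and Klra9 at 0, and 0.646 to 87.5 CPM in spleen, with all 5 detected, and the part of B and natural killer cells was not tested. Without the 3 spleen libraries richest in neutrophil markers both calls held, at -2.23, adjusted p = 0.0321 for Il18r1 and -1.62, adjusted p = 0.0277 for Il18rap. The spleen libraries kept still held 5895 to 15078 CPM of neutrophil markers, against 184 to 1194 CPM in tumor macrophages. The part of neutrophils therefore cannot be told apart by that fit. In dendritic cells Il18rap rose in tumor (log2 1.89 ± 0.38, adjusted p = 0.00156), with 72.6, 12.97 and 59.3 CPM at 12 months and 42.7, 13.6, 28.7 and 56.7 CPM at 3 months in tumor, lowest in replicate 2 of each age. Spleen dendritic cells had 17.5, 12.7 and 14.6 CPM of it at 12 months and 15.5, 13.3 and 10.5 CPM at 3 months, which the replicates 2 of tumor overlapped. The 5 natural killer cell markers summed to 2.52 to 90.6 CPM in tumor dendritic cells, also lowest in replicate 2 of each age. In spleen dendritic cells they summed to 42.6 to 116 CPM, and their part was not tested.

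In CD8 T cells the age difference of both genes itself differed between tumor and spleen. Il18r1 had 169, 149.9, 110.3 and 112 CPM at 12 months and 266, 222, 208 and 256 CPM at 3 months in tumor, and 111, 118, 103 and 116 CPM at 12 months and 75.0, 73.4, 62.8 and 76.0 CPM at 3 months in spleen. At 12 months all tumor libraries were below all of those at 3 months, and in spleen all were above. In spleen the age difference was 0.65 ± 0.13 (log2, adjusted p = 0.00945) and was lost without replicate 3 of the 3 month group (0.59, adjusted p = 0.0528) and without replicate 4 of every group (0.66, adjusted p = 0.0892). In tumor it was -0.80 ± 0.16 (adjusted p = 0.407, unadjusted p = 0.000124), and DESeq2 called it (-0.81, adjusted p = 0.00904), as did 1 fit of all 4 groups (-0.80, adjusted p = 0.0397) and a fit without the low-count filter (-0.78, adjusted p = 0.00363).
Il18rap had 406, 274, 279.9 and 173 CPM at 12 months and 562, 473, 437 and 317 CPM at 3 months in tumor, and 131, 122, 123 and 122 CPM at 12 months and 54.7, 51.0, 44.5 and 68.7 CPM at 3 months in spleen. The ages overlapped in tumor (log2 -0.64 ± 0.21, adjusted p = 1.000) and were apart in spleen, where Il18rap rose at 12 months (log2 1.199 ± 0.14, adjusted p = 2.35e-05). Both genes were among 119 genes called for age in spleen, 1.02% of those tested.
The test of the difference between the age effects in tumor and in spleen called both, at -1.45 ± 0.20, adjusted p = 0.000506 for Il18r1 and -1.83 ± 0.27, adjusted p = 0.000937 for Il18rap, among 19 genes or 0.143% of those tested. Over both ages, tumor exceeded spleen in Il18r1 (log2 1.09 ± 0.10, adjusted p = 4.54e-09, with overlap) and in Il18rap (log2 2.19 ± 0.14, adjusted p = 1.23e-11, without). The ratio of Il18rap to Il18r1 counts had a median of 2.10 in tumor (1.24 to 2.54) and 0.965 in spleen (0.695 to 1.19), a mean log2 difference of 1.08 (exact permutation p = 0.0001554, the smallest possible, and 0.0003108 adjusted over the 4 ratios).
Spleen CD8 T cells exceeded spleen conventional CD4 T cells in Il18r1 (log2 1.11 ± 0.15, adjusted p = 2.24e-07) and Il18rap (log2 1.96 ± 0.34, adjusted p = 8.48e-05), and tumor CD8 T cells did not differ past the threshold from tumor conventional CD4 T cells (Il18r1 log2 -0.20 ± 0.15, adjusted p = 0.434; Il18rap log2 0.64 ± 0.33, adjusted p = 0.212). The change between the tissues was called for Il18r1 (-1.31 ± 0.22, adjusted p = 6.75e-05) and missed the threshold for Il18rap (-1.33 ± 0.46, adjusted p = 0.0897), with a difference of similar size. Il18rap was called without replicate 4 of every group (-1.42, adjusted p = 0.0232) and without the low-count filter (-1.31, adjusted p = 1.23e-07). In tumor alone the gap of Il18rap also passed under these settings, at 0.82, adjusted p = 0.0170 and 0.65, adjusted p = 0.000588.
In spleen CD8 T cells the 5 natural killer cell markers summed to 16.1 to 31.4 CPM at 12 months and 6.48 to 11.5 CPM at 3 months. Of these 4 were detected, and Ncr1 had no count at either age. The part of these markers in the age difference was not tested.

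**Figure D5:**
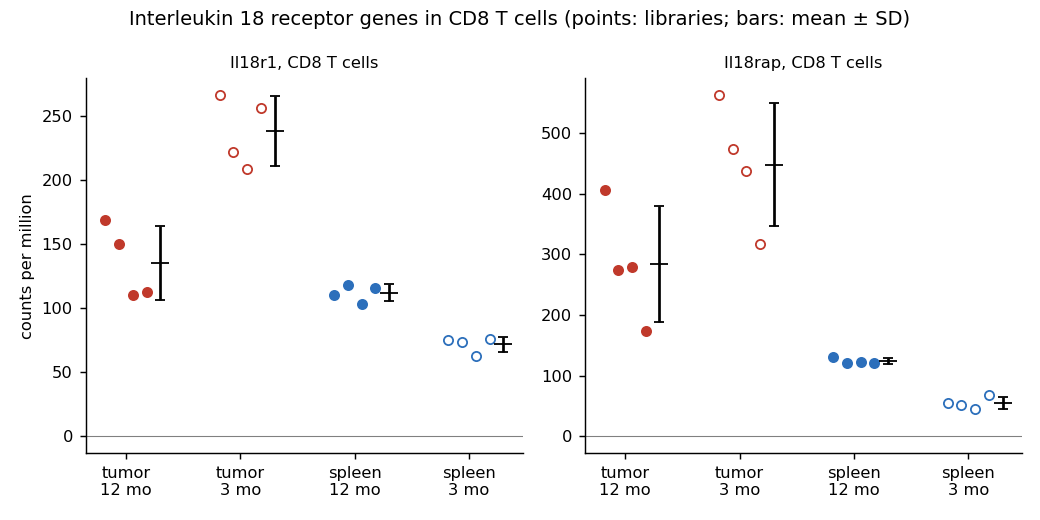
Il18r1 and Il18rap in CPM (y axis, linear) in each CD8 T cell library by tissue and age, with the mean ± SD of each group beside the points. In spleen the 12 month libraries lie above the 3 month libraries in both genes, and in tumor the 12 month libraries lie below them in Il18r1.

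In the other age comparisons no member was called by edgeR. These were macrophages of tumor (0% of all genes called) and spleen (0%), dendritic cells of tumor (0%) and spleen (0.593%), and regulatory (0%), conventional CD4 (0.0311%) and CD8 T cells (0%) of tumor. At an unadjusted p under 0.05 there were 0 members in tumor macrophages, 3 in spleen macrophages, 1 in tumor dendritic cells, 0 in spleen dendritic cells, 1 in tumor regulatory T cells, 3 in tumor conventional CD4 T cells and 2 in tumor CD8 T cells. DESeq2 called 1 member in each of the last 2 and none in the first 5. The 3 in spleen macrophages were Il18, Il1b (log2 0.74 ± 0.23, adjusted p = 0.736) and Il1rn (log2 0.84 ± 0.27, adjusted p = 0.736), of which Il1b (0.73, adjusted p = 0.00658) and Il1rn (0.83, adjusted p = 0.0217) passed without the low-count filter. The 3 month group of spleen dendritic cells includes the 2 libraries whose age tag gives 12 months. Without them 1 library remained at that age, and Il18r1 differed by log2 5.62 between 12 and 3 months. For the change of the age effect between the tissues, edgeR also called no member in macrophages (0% of all genes), dendritic cells (0%), regulatory T cells or conventional CD4 T cells (0.668%). At an unadjusted p under 0.05 there were 0, 1, 1 and 2 members in these, and DESeq2 called 0, 0, 1 and 1.

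Around the members, 4 lists of pathway genes were followed. The list of 15 other family genes had 11 in the table, and 3 to 5 of them were tested in a type. Between tumor and spleen 2 rose and 2 fell in macrophages, 2 rose and 1 fell in dendritic cells, 1 fell in regulatory T cells, 2 rose and 1 fell in conventional CD4 T cells, and 1 rose and 1 fell in CD8 T cells. Of all genes tested the share called was 51.7% in macrophages, 47.1% in dendritic cells, 53.5% in regulatory, 27.2% in conventional CD4 and 42.1% in CD8 T cells, and the counts of each list are to be read against it. Il18bp, which encodes a secreted protein that binds interleukin 18, was at 242 ± 57.1 CPM in tumor and 22.0 ± 4.93 CPM in spleen macrophages (SD, n = 8 each; log2 3.69 ± 0.18, adjusted p = 3.42e-12). In dendritic cells it was at 177 ± 75.5 CPM in tumor and 6.50 ± 1.93 CPM in spleen (SD, n = 7 and 6; log2 5.11 ± 0.38, adjusted p = 1.55e-06). Il1rl2, the interleukin 36 receptor gene, also rose in tumor macrophages (log2 4.26 ± 0.53, adjusted p = 4.04e-06) and dendritic cells (log2 2.74 ± 0.51, adjusted p = 0.000624), and fell in tumor conventional CD4 (log2 -1.12 ± 0.41, adjusted p = 0.0424) and CD8 T cells (log2 -0.90 ± 0.32, adjusted p = 0.0255). Il1f9, an interleukin 36 ligand gene, was at 9.05 ± 9.23 CPM in tumor and 123 ± 64.9 CPM in spleen macrophages (log2 -3.83 ± 0.53, adjusted p = 2.74e-05), the same sorts that differ in neutrophil markers. Sigirr, an inhibitory family receptor, fell in tumor regulatory T cells (log2 -0.50 ± 0.11, adjusted p = 0.000907).

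Of the 14 inflammasome and processing genes, 4 rose and 2 fell of 13 tested in tumor against spleen macrophages, 7 rose and 2 fell of 12 in dendritic cells, 3 rose and 3 fell of 10 in regulatory T cells, 4 rose and 2 fell of 9 in conventional CD4 T cells and 6 rose and 1 fell of 8 in CD8 T cells. The share called was below that of all genes in macrophages (51.7%) and near it in regulatory T cells (53.5%). Their median log2 fold changes were -0.070, 0.80, 0.24, 0.094 and 1.13. Casp1 encodes the protease that cuts the precursors of interleukins 1 beta and 18, and Casp4 a related inflammatory caspase. In CD8 T cells Casp4 was at 147 ± 39.7 CPM in tumor and 17.9 ± 14.3 CPM in spleen (SD, n = 8 each; log2 3.60 ± 0.16, adjusted p = 2.09e-14), and Casp1 at 105 ± 34.9 CPM in tumor and 26.6 ± 22.9 CPM in spleen (log2 2.63 ± 0.20, adjusted p = 7.99e-10).
Both also differed by age in spleen T cells. In spleen CD8 T cells Casp1 averaged 46.6 ± 11.7 CPM in the 12 month group and 6.47 ± 2.39 CPM in the 3 month group (SD, n = 4 each; log2 2.83 ± 0.27, adjusted p = 1.69e-06), and Casp4 averaged 30.6 ± 6.39 CPM at 12 months and 5.07 ± 1.95 CPM at 3 months (log2 2.58 ± 0.30, adjusted p = 1.86e-05). In spleen conventional CD4 T cells Casp1 averaged 121 ± 16.7 CPM in the 12 month group and 24.0 ± 8.65 CPM in the 3 month group (SD, n = 4 and 3; log2 2.16 ± 0.26, adjusted p = 0.000151), and Casp4 averaged 139 ± 32.0 CPM at 12 months and 31.2 ± 3.25 CPM at 3 months (log2 1.97 ± 0.23, adjusted p = 0.000141). In that comparison 4 list genes rose and 1 fell of 9, and 3 rose of 7 in spleen CD8 T cells, with 3.92% and 1.02% of all genes called. The change of the age effect between tumor and spleen was called for Casp1 and Casp4 in CD8 T cells (-2.27 ± 0.39, adjusted p = 0.00921 for Casp1 and -1.98 ± 0.30, adjusted p = 0.00150 for Casp4) and in conventional CD4 T cells (-1.95 ± 0.34, adjusted p = 0.00265 and -1.84 ± 0.30, adjusted p = 0.00121).

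Signalling adaptors and kinases, 16 genes all tested, were mixed: 2 rose and 6 fell in macrophages, 4 rose and 3 fell in dendritic cells, 4 rose and 3 fell in regulatory T cells, 4 rose and 2 fell in conventional CD4 T cells and 5 rose and 2 fell in CD8 T cells of tumor. These shares were near or below those of all genes in macrophages (51.7%), dendritic cells (47.1%), regulatory (53.5%) and CD8 T cells (42.1%), and above it in conventional CD4 T cells (27.2%). Myd88, the adaptor that all these receptors share, rose in tumor dendritic cells (log2 0.99 ± 0.13, adjusted p = 1.62e-05) and regulatory T cells (log2 0.75 ± 0.12, adjusted p = 1.8e-05), and Nfkb1, an NF-kB subunit gene, fell in tumor macrophages (log2 -1.28 ± 0.10, adjusted p = 5.26e-09) and dendritic cells (log2 -0.90 ± 0.12, adjusted p = 3.34e-05).
Of 15 genes known to be induced by these cytokines, which other signals induce as well, those called were nearly all higher in tumor: 2 rose and 1 fell of 8 in macrophages, 7 of 10 rose in dendritic cells, 5 of 7 in regulatory T cells, 10 of 11 in conventional CD4 T cells and 6 of 7 in CD8 T cells, with none lower in these 4. In macrophages that share was below the 51.7% of all genes. Their median log2 fold changes were 0.16, 2.16, 0.58, 4.98 and 3.13. Tnfaip3, an inhibitor of NF-kB, was at 1403 ± 288 CPM in tumor and 171 ± 76.5 CPM in spleen conventional CD4 T cells (SD, n = 6 and 7; log2 3.16 ± 0.22, adjusted p = 1.57e-10). Areg, which encodes the tissue repair factor amphiregulin, was at 102 ± 21.1 CPM in tumor and 3.60 ± 2.26 CPM in spleen regulatory T cells (SD, n = 8 each; log2 5.02 ± 0.28, adjusted p = 8.26e-12). Ifng was at 453 ± 243 CPM in tumor and 6.98 ± 4.79 CPM in spleen CD8 T cells (SD, n = 8 each; log2 6.20 ± 0.46, adjusted p = 1.7e-07), and the neutrophil chemokine gene Cxcl2 at 173 ± 65.0 CPM in tumor and 0.567 ± 0.914 CPM in spleen dendritic cells (SD, n = 7 and 6; log2 8.94 ± 0.50, adjusted p = 1.16e-07).

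Genes with the most similar pattern to each member were ranked by Pearson's correlation of log2(mean CPM + 1) over the 20 groups, among 10560 genes with a mean of at least 10 CPM in some group. The 20 points share sorted types and tissues, and the correlations are given as a description. The 3 nearest to Il1a were F7 (r = 0.981), Pgf (r = 0.979) and Htra3 (r = 0.975). Those nearest to Il1b were Clec7a (r = 0.995), Cd33 (r = 0.993) and Pira2 (r = 0.989), and those nearest to Il18 Asph (r = 0.963), Tifab (r = 0.960) and Cybb (r = 0.960). For Il1rn they were Tmem132a (r = 0.968), Atp13a2 (r = 0.967) and Tcn2 (r = 0.967). For Il1r2 they were Eif4e3 (r = 0.912), Cdkn1a (r = 0.904) and Cpd (r = 0.902), and for Il1rl1 Sdf4 (r = 0.938), Irgm2 (r = 0.929) and Wisp1 (r = 0.920). The nearest to Il18r1 were Zdhhc18 (r = 0.970), Fam102a (r = 0.961) and Dcaf5 (r = 0.958), and to Il18rap Nbeal2 (r = 0.879), Gfod1 (r = 0.850) and Ctla2a (r = 0.850). Il1rap (Agpat2 (r = 0.848), Myh10 (r = 0.847) and Fam63a (r = 0.821)) and Il1r1 (Il17re (r = 0.833), Cntln (r = 0.777) and Zfp704 (r = 0.730)) had the lowest values.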

How the data were processed

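RNA was measured by Smart-seq2, a full-length method, in libraries of 1000 double-sorted cells, per the labels' protocols. Per the submitters' processing notes, the authors used STAR 2.5.3, featureCounts and the mm10 build. Which annotation release and strand setting they used, and how reads mapping to several places were counted, is not given in the sources used here. Raw counts were deposited for 49480 gene symbols in 74 columns, each matched to a library by its title. Totals ran from 1652812 to 9115858 counts. Smart-seq2 reads carry no molecular identifiers, so the counts are reads and not molecules. Gene positions are from GENCODE M21 on GRCm38.

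Levels (CPM) are counts scaled to a library total of 1000000. Within each type a fit of the 4 groups gave tumor over spleen, averaged across ages, and the difference of the age effects between the tissues. Age was fitted within each tissue, and comparisons between types used the libraries of those types. After a low-count filter (filterByExpr) and TMM scaling, robust quasi-likelihood models were fitted with edgeR 4.0.16 (limma 3.58.1, R 4.3.3), with sex as a covariate for dendritic cells. Benjamini-Hochberg adjustment of the two-sided p-values covered all genes of a comparison, 29 comparisons in all, at 0.05. The procedure was tested on simulated data. Ratios of counts were compared by exact permutation over libraries. Of each pathway list, up to 3 genes past the threshold by smallest adjusted p could be named for tumor against spleen and up to 2 elsewhere, and the text gives a selection.

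The members and lists were chosen with earlier results of these data known. Other settings tried were the size factors of DESeq2, omission of the low-count filter, DESeq2 1.42.0 (Wald test), the replicate number as a block, all 4 groups in one fit for age, no sex covariate, the age tag in place of the title or without those libraries, without libraries rich in macrophage or ribosomal transcripts, another count added in ratios, and each library left out in turn. Fits without replicate 4 of every group and without neutrophil-rich spleen macrophage libraries were added after seeing the data. Where 1 library remained in a group, it was assumed to vary like the others of the fit. No pair among 103 pairs of replicates held identical counts. Same-numbered libraries correlated above 0.1 in every pair only for age in tumor regulatory T cells (4 pairs, 0.111 to 0.349), where the block changed no call.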

Additional observations from a re-analysis of the deposited data

Results flagged for a closer look

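In 7 of the 82 group values examined, 1 library stood apart from the others of its group by a gap larger than Dixon's critical value at the 95% level, which chance gives in about 5% of groups. Il1rn was at 1608 CPM in replicate 4 of tumor macrophages at 3 months, while the other 3 libraries of that group had 364 to 554 CPM. Il1rl1 was at 28.5 CPM in replicate 4 of tumor macrophages at 12 months, against 3.68 to 7.54 CPM, and at 99.1 CPM in replicate 4 of tumor conventional CD4 T cells at 12 months, against 15.1 to 29.2 CPM. Il18rap was at 125 CPM in replicate 4 of spleen macrophages at 3 months, against 72.0 to 77.8 CPM. That library also had the highest sums of natural killer cell markers (87.5 CPM) and T cell markers (140.1 CPM) among the 8 spleen macrophage libraries, and their part was not tested. Il1r2 was at 749 CPM in replicate 2 of tumor dendritic cells at 3 months, the low end of a group with 2020 to 2218 CPM. Il1rap was at 22.6 CPM in replicate 1 of spleen CD8 T cells at 3 months, against 10.9 to 11.5 CPM, and Il18rap at 131 CPM in replicate 1 of spleen CD8 T cells at 12 months, against 122 to 123 CPM.

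For 9 effects a test of the difference itself separated the groups, by edgeR's quasi-likelihood test with Benjamini-Hochberg adjustment, on the log2 scale. The age effect in tumor minus that in spleen CD8 T cells was -1.45 ± 0.20 (adjusted p = 0.000506) for Il18r1 and -1.83 ± 0.27 (adjusted p = 0.000937) for Il18rap. The difference of CD8 from conventional CD4 T cells changed between tumor and spleen by 3.73 ± 0.76 (adjusted p = 0.00285) for Il1r2 and by -1.31 ± 0.22 (adjusted p = 6.75e-05) for Il18r1. The difference of macrophages from dendritic cells changed by -5.13 ± 0.33 (adjusted p = 2.38e-11) for Il1b, -2.64 ± 0.48 (adjusted p = 0.000256) for Il1rn, -5.87 ± 0.50 (adjusted p = 1.02e-08) for Il1r2, -2.65 ± 0.45 (adjusted p = 6.58e-05) for Il1rap and -3.60 ± 0.64 (adjusted p = 0.000186) for Il18rap.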

How the results depend on the processing

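The 5 counts of members called for tumor against spleen stayed within 1.5 times their value under every alternative, and so did those of macrophages against dendritic cells in each tissue. Without the low-count filter the number of members called became 2 against 0 for age in spleen macrophages, 2 against 0 in tumor conventional CD4 T cells, 2 against 0 in tumor CD8 T cells and 0 against 1 in spleen conventional CD4 T cells. It became 1 against 0 for the age by tissue difference in regulatory and in conventional CD4 T cells. Between types it became 5 against 2 for regulatory over conventional CD4 T cells in spleen, 3 against 0 for the change of that gap between the tissues, 4 against 2 for the same change of CD8 T cells, and 8 against 5 for macrophages against dendritic cells. For some members the estimate hardly moved while its SE became smaller, as for Il18rap in regulatory against conventional CD4 T cells of spleen. The share of all genes called also depended on the filter. For tumor against spleen macrophages it was 51.7% with the filter and 21.3% of 36579 genes without it. The counts in this section cover members only and are not set against all genes. DESeq2 called 1 member against 0 for age in tumor conventional CD4 and tumor CD8 T cells and for the age by tissue difference in regulatory and conventional CD4 T cells. One fit of all 4 groups called 1 against 0 for age in tumor CD8 T cells. Without the libraries of conflicting age labels, age in spleen dendritic cells gave 1 against 0. Without ribosomal-rich spleen conventional CD4 libraries, age in these cells gave 0 against 1, CD8 against conventional CD4 T cells in spleen 2 against 4 and its change between the tissues 1 against 2. Without replicate 4 of every group, age gave 0 against 1 in spleen conventional CD4 and 1 against 2 in spleen CD8 T cells. The cause of these changes was not tested.

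No label says that libraries of one number share an animal. With the replicate number as a block, 1 member against 0 was called for age in tumor conventional CD4 T cells (2 pairs) and in tumor CD8 T cells, and 4 against 2 for regulatory over conventional CD4 T cells in spleen, and the other counts stayed within 1.5 times. Among single members of tumor against spleen, the block called Il1rap in CD8 T cells (log2 0.51, adjusted p = 0.0406) and Il18 in conventional CD4 T cells (3.30, adjusted p = 0.0357). Between types it called Il1rl1 (1.32, adjusted p = 0.0456) and Il18rap for regulatory against conventional CD4 T cells in spleen (-0.82, adjusted p = 0.0468), Il18rap for the change of the gap of CD8 from conventional CD4 T cells between the tissues (-1.51, adjusted p = 0.0434), and Il18r1 for macrophages against dendritic cells in spleen (1.53, adjusted p = 0.0480) and for the change of that gap (-2.76, adjusted p = 0.0296).

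With each library left out in turn, the number of members called ran from 0 to 1 for age in spleen dendritic cells and spleen conventional CD4 T cells, for the age by tissue difference in regulatory and conventional CD4 T cells, and for the change between tissues of the gap of regulatory from conventional CD4 T cells. It ran from 1 to 2 for age in spleen CD8 T cells. The log2 difference of the Il1rn to Il1b ratio between tumor and spleen dendritic cells ran from -0.16 to 0.23, below 0 without replicate 1 of the spleen group at 12 months or replicate 2 of the tumor group at 3 months, and it was -0.32 without the tumor libraries rich in macrophage markers. Of 1609 other values of single members, 1444 kept their direction and side of the threshold within 1 SE, 13 lost and 62 gained a call, 90 moved by more than 1 SE and 0 turned round.

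Precision is limited by groups of 2 or 3 libraries and by low counts: Il1r1 in most groups, Il1rl1 in dendritic cells and Il1r2 in spleen CD8 T cells rest on levels of a few CPM.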
